A study of Mus musculus with 7 samples.

Results

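The connexin genes encode the subunits of gap junctions, and 9 of them are described in the day-6 pair of libraries from the sinoatrial node (SAN), the pacemaker region of the right atrium. The members are the rows of the deposited table whose symbol is Gjc1, Gjd3, Gja1, Gja5, Gja4, Gjb1, Gjb2, Gja3 or Gja6, that is 9 of 15965 genes with a completed comparison. The Cre library came from Sv129 mice of genotype Baf250af/f;Hcn4CreERT2 at 6 days after tamoxifen, and the day-6 control library from Sv129 mice of genotype Baf250af/f without Cre, both aged 3 weeks after birth. Both groups therefore carry the floxed Baf250a alleles (gene symbol Arid1a), and by their labels they differ in Hcn4CreERT2, a tamoxifen-dependent recombinase expressed under Hcn4, so that the gene is targeted in Hcn4-expressing cells and not in the other cells of the sample. Whether the control mice also received tamoxifen, how many mice were pooled and their sex are not stated in the labels. Female-expressed Xist had 93.2 FPKM in the Cre library and 0.379 FPKM in the control library, and Y-linked Eif2s3y had 0.118 FPKM in the Cre library and 85.8 FPKM in the control library, so sex and genotype cannot be told apart for any of the 9 genes. Each genotype is represented by 1 library, which leaves every difference given here without a replicate check, and no genotype test was run. The other 5 of the 7 samples, a time series, were not analysed here.

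Connexins assemble into hexamers, and hexamers docked between neighbouring cells let ions and small molecules pass. In working heart muscle, abundant connexins of high conductance spread the action potential quickly. Pacemaker cells are known for few and small gap junctions built from connexins of low conductance, which helps to shield them from the surrounding atrium. The series title places Baf250a upstream of an Nkx2-5-directed contractile programme in the node, and the balance between node-type and working-muscle connexins bears on that question. Node-type genes here were Gjc1 and Gjd3, working-muscle genes Gja1 and Gja5, the vessel gene Gja4, epithelial genes Gjb1 and Gjb2, and Gja3 and Gja6 (known mainly from lens and testis) formed the remainder.

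Because the question turns on Nkx2-5, the bases before the start site of the working-muscle genes are printed, together with the one promoter among those searched that held an Nkx2-5 element. RefSeq promoters (build GRCm38.p6) were found for 7 of the 9 genes, at 11 start sites (the node-type genes Gjc1 and Gjd3 were not searched), and the 250 bases before each were searched on both strands for the Nkx2-5 element TNAAGTG, the T-box half-site AGGTGT and the GATA site AGATAA. No 2 of these matches overlapped, and capitals mark the matches in the lines that follow, each written 5′ to 3′ on the strand of the gene. Gja1 lies at chr10:56377050-56377299 on the plus strand, Gja5 at chr3:97032152-97032401 on the plus strand, and the Gjb1 window (start site 3 of 4) at chrX:101381868-101382117 on the plus strand.
Gja1: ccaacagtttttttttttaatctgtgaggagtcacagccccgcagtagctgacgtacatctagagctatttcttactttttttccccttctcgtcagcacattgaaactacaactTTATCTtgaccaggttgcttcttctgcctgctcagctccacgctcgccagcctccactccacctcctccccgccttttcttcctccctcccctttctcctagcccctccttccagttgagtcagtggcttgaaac
Gja5: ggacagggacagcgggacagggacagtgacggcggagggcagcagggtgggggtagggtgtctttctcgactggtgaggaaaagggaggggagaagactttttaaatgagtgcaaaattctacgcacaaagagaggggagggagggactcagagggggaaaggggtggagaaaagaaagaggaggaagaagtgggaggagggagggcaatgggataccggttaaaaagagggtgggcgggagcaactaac
Gjb1: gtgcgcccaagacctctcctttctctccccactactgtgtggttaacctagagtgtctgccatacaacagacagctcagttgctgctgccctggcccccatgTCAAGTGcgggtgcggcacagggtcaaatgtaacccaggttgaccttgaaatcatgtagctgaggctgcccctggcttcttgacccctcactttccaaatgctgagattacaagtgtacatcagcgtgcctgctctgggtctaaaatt
The Gja1 window held 1 GATA site on the opposite strand, at position -135 from the start site, and the Gja5 window held none of the motifs. Gjb1 held 1 Nkx2-5 element, at position -148 of start site 3, and T-box half-sites were found before Gjb1 (start site 1, -57), Gjb2 (-8) and Gja3 (start site 2, -217). Of 32851 mouse promoter windows of this length, 10.1% held the Nkx2-5 element, 11.8% the T-box half-site and 9.99% the GATA site. A match is a run of letters and not evidence of binding, and these windows do not reach distal enhancers.

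The 9 connexins together amounted to 149 FPKM in the Cre library and 91.4 FPKM in the control library, a ratio of 1.63. FPKM counts sequenced fragments relative to transcript length and library size, so levels of different genes can be set side by side. All 9 genes lay above equal expression, 5 with a mean of 1 FPKM or more and 4 below it. Of all genes below that mean, 63.3% did so too, and of those at or above it 46.0%. None of the 5 more abundant genes (Gja1, Gja5, Gjc1, Gja4 and Gja3) was at least 2-fold higher or lower on the log2 scale of FPKM + 1. Across the 13409 genes with such a mean, 6.08% were at least 2-fold higher and 10.4% were at least 2-fold lower. The median log2 ratio of the 5 genes was 0.67, against -0.07 over all genes measured. In a bulk sample, fewer cells of a type and less RNA per cell cannot be told apart. The authors' deposited table called 0 of the 9 connexins significant, against 0.564% of all genes, with p-values between 0.2965 and 0.961 and one q-value, 0.999, for all of them. That table compares 2 libraries and not the genotypes.

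**Figure D1:**
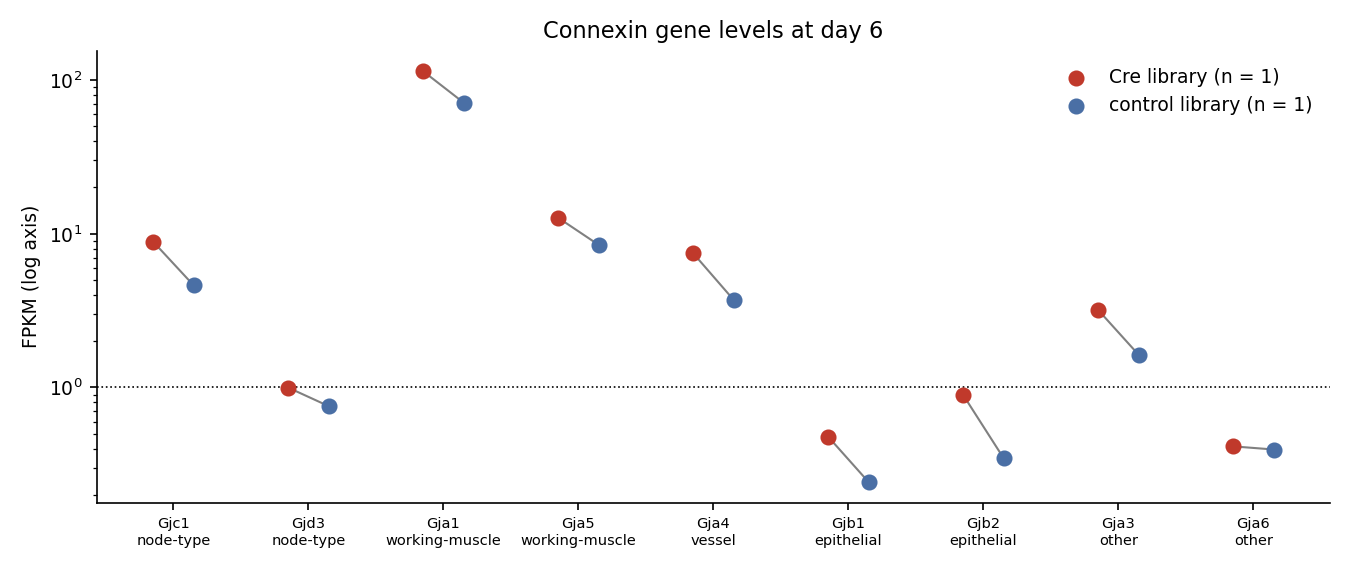
FPKM of each connexin gene (log axis) in the Cre library (red, left of each pair) and the control library (blue, right), 1 library each, with the dotted line at 1 FPKM. Every red point lies above its blue partner, and Gja1 (114 FPKM in the Cre library, 71.2 FPKM in the control library) stands far above the other members in both.

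The node-type gene Gjc1, which encodes Cx45, a connexin of low conductance found throughout the node and conduction system, had 8.87 FPKM in the Cre library and 4.61 FPKM in the control library. This is a log2 ratio of FPKM + 1 of 0.82, or 1.92-fold without the added 1, and it placed Gjc1 at the 90.3 percentile of ratios among all genes measured. Gjc1 lies on mm9 chromosome 11, from 102660791 to 102681000 as the deposited table writes it. It ranked 3 among the 9 connexins in both libraries, behind Gja1 and Gja5.

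Gjd3, the other node-type gene, encodes cx30.2, which in mice slows conduction through the atrioventricular node. It had 0.998 FPKM in the Cre library and 0.756 FPKM in the control library, so it stayed under 1 FPKM in both, and its log2 ratio of 0.19 was among the smallest of the set. Its locus in the table (mm9 chromosome 11, 98843493 to 98844330) is 837 bases long, equal to the GENCODE M21 transcript, a whole number of codons. The RefSeq gene in GRCm38 spans 3074 bases. The value of Gjd3 may thus rest on its coding length alone, and its place below Gjc1 (8.89-fold in the Cre library, 6.09-fold in the control library) holds for that gene model.

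Gja1 encodes Cx43, the main gap junction protein of working atrial and ventricular muscle, which fibroblasts, smooth muscle and many other cells also make. It was the most abundant connexin, with 114 FPKM in the Cre library and 71.2 FPKM in the control library. That put it at rank 635 of all genes in the Cre library and rank 1122 in the control library. The log2 ratio was 0.67 (1.60-fold without the added 1), at the 86.7 percentile of all genes measured. Gja1 exceeded Gjc1 in both libraries, 12.9-fold in the Cre library and 15.5-fold in the control library. Gja1 lies on mm9 chromosome 10, from 56097105 to 56110225.

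Gja5 encodes Cx40, a connexin of high conductance in atrial muscle, the His-Purkinje system and the endothelium of arteries. It had 12.7 FPKM in the Cre library and 8.46 FPKM in the control library. The log2 ratio was 0.54, the lowest of the 5 genes above the minimum. Gja5 lies on mm9 chromosome 3, from 96836338 to 96857557. The level of Gjc1 was 0.697 of that of Gja5 in the Cre library and 0.545 in the control library, while Gja5 was 0.111 of Gja1 in the Cre library and 0.119 in the control library.

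The ratio of node-type to working-muscle FPKM was 0.0776 in the Cre library and 0.0673 in the control library, 1.15 times as large in the Cre library. It was taken over all cells of the sample and is not the balance within node cells. Which cells the Gjc1 signal came from was not tested. The log2 ratio of Gjc1 minus the median of the pacemaker markers was 0.46. Against the smooth muscle and pericyte markers this value was 0.04, and against the working myocardium markers -0.07. Summed node-type FPKM was 9.86 in the Cre library and 5.36 in the control library, 1.84-fold, and summed working-muscle FPKM was 127 in the Cre library and 79.7 in the control library, 1.59-fold. Working-muscle genes held 85.1% of connexin FPKM in the Cre library and 87.2% in the control library. Node-type genes held 6.60% in the Cre library and 5.87% in the control library. These shares are taken within a library and do not depend on the scaling between libraries, but with 1 library each no error can be set on them. Gja1 alone was 76.6% of the sum in the Cre library and 78.0% in the control library. Without Gja1 the node-type share was 28.2% in the Cre library and 26.6% in the control library, and the working-muscle share, then Gja5 alone, was 36.3% in the Cre library and 42.0% in the control library.

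**Figure D2:**
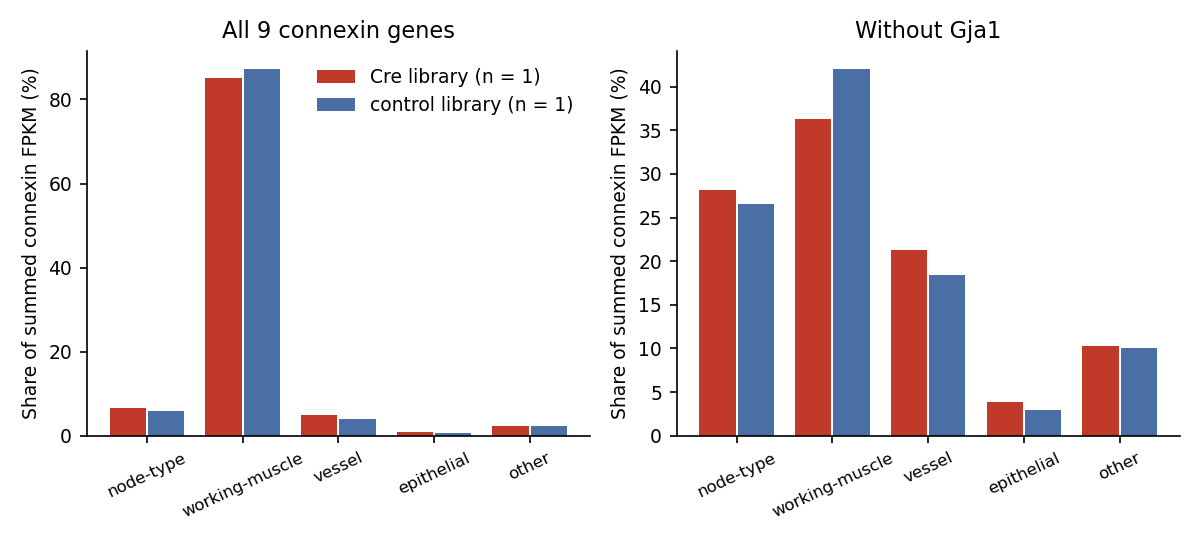
Share of summed connexin FPKM (percent) by class in the Cre library (red, left) and the control library (blue, right), 1 library each, for all 9 genes (left panel) and without Gja1 (right panel, own axis). Working-muscle genes hold 85.1% in the Cre library and 87.2% in the control library, and without Gja1 they hold 36.3% in the Cre library and 42.0% in the control library.

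Gja4 encodes Cx37, a connexin of arterial endothelium. It had 7.46 FPKM in the Cre library and 3.71 FPKM in the control library. Its log2 ratio of 0.84 was the highest of the set, at the 91.0 percentile of all genes measured. Without the added 1 the ratio was 2.01-fold, so on that scale Gja4 passed 2-fold, as did 9.84% of genes averaging 1 FPKM or more. Gja4 lies on mm9 chromosome 4, from 126988664 to 126991222. The markers of endothelium beside it had a median log2 ratio of 0.54, with 0 of 14 at least 2-fold higher and 14 above equal expression, and the 12 arterial markers a median of 0.41 with 0 at least 2-fold higher. Gja4 minus the median of the endothelium list was 0.30, and for Gja5 this value was -0.01. The 14 endothelium markers ranged from 0.04 to 0.86, so Gja4 lay within their range. Against the smooth muscle and pericyte list, Gja4 stood at 0.07 and Gja5 at -0.24. Which cells the Gja4 signal came from was not tested. Cdh5, the cadherin of endothelial junctions, had 35.8 FPKM in the Cre library and 19.4 FPKM in the control library, and Hey2, an arterial transcription factor, had 6.32 FPKM in the Cre library and 3.33 FPKM in the control library. Of the 12 arterial markers 11 lay above equal expression. Notch1 went the other way, with 9.83 FPKM in the Cre library and 17.2 FPKM in the control library.

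The epithelial connexins among the 9 genes, Gjb1 and Gjb2, were both under 1 FPKM. Gjb2, which encodes Cx26 of many epithelia, had 0.893 FPKM in the Cre library and 0.346 FPKM in the control library. Gjb1, which encodes Cx32 of liver and Schwann cells, had 0.478 FPKM in the Cre library and 0.242 FPKM in the control library. The 2.58-fold ratio of Gjb2 was the largest among the 9 genes without the added 1, but 31.4% of all genes with a mean below 1 FPKM were at least 2-fold higher on that scale, and with the added 1 the log2 ratio of Gjb2 was 0.49. Gjb1 had a log2 ratio of 0.25. Together they held 0.918% of connexin FPKM in the Cre library and 0.643% in the control library. With Gjb5, a further epithelial connexin that was added after its values were seen, the epithelial share was 2.47% in the Cre library and 2.37% in the control library.

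Lung and airway markers moved the same way as these 2 genes, with 12 of 12 at least 2-fold higher, a median log2 ratio of 2.16 and summed FPKM of 18690 in the Cre library and 4206 in the control library. Of 12 general epithelium markers 6 were at least 2-fold higher and 2 lower, and their summed FPKM was 248 in the Cre library and 285 in the control library. The list went both ways, with 7 of 12 above equal expression. Cdh1, the cadherin of epithelia, had 21.7 FPKM in the Cre library and 7.11 FPKM in the control library, whereas the keratin Krt18 had 37.3 FPKM in the Cre library and 100.5 FPKM in the control library. For Gjb1, Schwann cell markers had a median of 0.38 over 9 measured genes, with 0 higher and 2 lower. The part of these cells in the 2 connexin values was not tested.

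Gja3, which encodes Cx46 and is best known from the lens, had 3.19 FPKM in the Cre library and 1.63 FPKM in the control library, and its log2 ratio was 0.67. Its FPKM exceeded that of the node-type gene Gjd3 in both libraries. Gja6, which encodes Cx33 and is known from the testis of mice, was nearly equal, with 0.414 FPKM in the Cre library and 0.395 FPKM in the control library. The value of Gja6 is uncertain, since its locus in the table is not its own alone. Gja6 and Gjb1 are X-linked. The 433 measured X-linked genes had a median log2 ratio of -0.09.

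Among the 9 genes, the order of the first 6 (Gja1, Gja5, Gjc1, Gja4, Gja3, Gjd3) was the same in both libraries. Below them Gjb2 was seventh, Gjb1 eighth and Gja6 ninth in the Cre library, and Gja6 was seventh, Gjb2 eighth and Gjb1 ninth in the control library. With 1 library each, whether neighbours in this order differ beyond replicate spread is unknown. Of the 36 pairs among the 9 genes, 1 (Gja1 and Gja4) shared any stretch of 25 bases in GENCODE M21 transcripts, with 2 such stretches, so few reads could be split between members.

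Of the further connexin rows in the table, Gjb5, a connexin of skin-type epithelia, had 2.37 FPKM in the Cre library and 1.61 FPKM in the control library. Gjc3, a glial connexin, was weaker, at 0.492 FPKM in the Cre library and 0.237 FPKM in the control library. Pannexins, which form channels in a single membrane and do not normally form gap junctions, resemble connexins in fold. Panx1 had 2.39 FPKM in the Cre library and 9.39 FPKM in the control library. Its log2 ratio of -1.62 made it the 1 member past 2-fold among 6 measured genes of the pannexin and large-pore channel list (median -0.36). Of all genes measured, 10.4% were at least 2-fold lower. All 14 thymocyte and T cell markers were lower as well, with summed FPKM of 7.35 in the Cre library and 2967 in the control library, and their part in the Panx1 value was not tested. Panx2 had 0.730 FPKM in the Cre library and 0.551 FPKM in the control library.

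Genes for proteins of the intercalated disc, where cardiac gap junctions lie, were above equal expression throughout. Among all genes measured, 46.0% lay above equal expression and 6.08% were at least 2-fold higher. Of 12 genes for partners at the gap junction plaque and adherens junction, 3 were at least 2-fold higher, 0 were lower and 12 lay above equal expression, with a median log2 ratio of 0.79. Cdh2, the N-cadherin that joins heart muscle cells, had 24.0 FPKM in the Cre library and 7.23 FPKM in the control library. Ctnna3, a catenin of the disc, had 8.21 FPKM in the Cre library and 2.99 FPKM in the control library, and Vcl, the actin linker vinculin, had 47.6 FPKM in the Cre library and 21.8 FPKM in the control library. All 8 desmosome genes (Jup is in both lists) lay above equal expression too, 2 of them at least 2-fold higher, with a median of 0.91. These were Dsp, desmoplakin, at 36.4 FPKM in the Cre library and 16.1 FPKM in the control library, and Dsg2, a desmosomal cadherin, at 17.99 FPKM in the Cre library and 7.95 FPKM in the control library. Working myocardium markers had a median log2 ratio of 0.89, general epithelium markers 0.88 and lung and airway markers 2.16. Which cells the values of these junction genes came from was not tested.

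Genes for connexin trafficking, kinases and turnover lay near equal expression as a group. Their median log2 ratio was 0.09 over 17 genes, 11 of them above equal expression and 0 past 2-fold in either direction. Cav3, the caveolin of muscle, had 58.9 FPKM in the Cre library and 30.3 FPKM in the control library. Mapre1, the microtubule end protein EB1 that guides connexin delivery, had 17.2 FPKM in the Cre library and 27.8 FPKM in the control library, and its log2 ratio was -0.67.

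Transcription factors known to act on connexin genes had a median log2 ratio of 0.65 over 18 genes, with 3 at least 2-fold higher, 0 lower and 17 above equal expression. The shares over all genes measured were 6.08% at least 2-fold higher, 10.4% lower and 46.0% above equal expression. Nkx2-5, an activator of Gja5 in mice, had 18.8 FPKM in the Cre library and 11.04 FPKM in the control library, and its log2 ratio of 0.72 stayed under 2-fold. The T-box repressors of Gja1 and Gja5 were weak: Tbx3 had 2.59 FPKM in the Cre library and 0.996 FPKM in the control library, and Tbx2 had 3.99 FPKM in the Cre library and 1.49 FPKM in the control library. Irx3, which in the His-Purkinje system of mice represses Gja1 and activates Gja5, had 5.55 FPKM in the Cre library and 1.31 FPKM in the control library, and Irx5 had 3.69 FPKM in the Cre library and 1.14 FPKM in the control library.

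**Figure D3:**
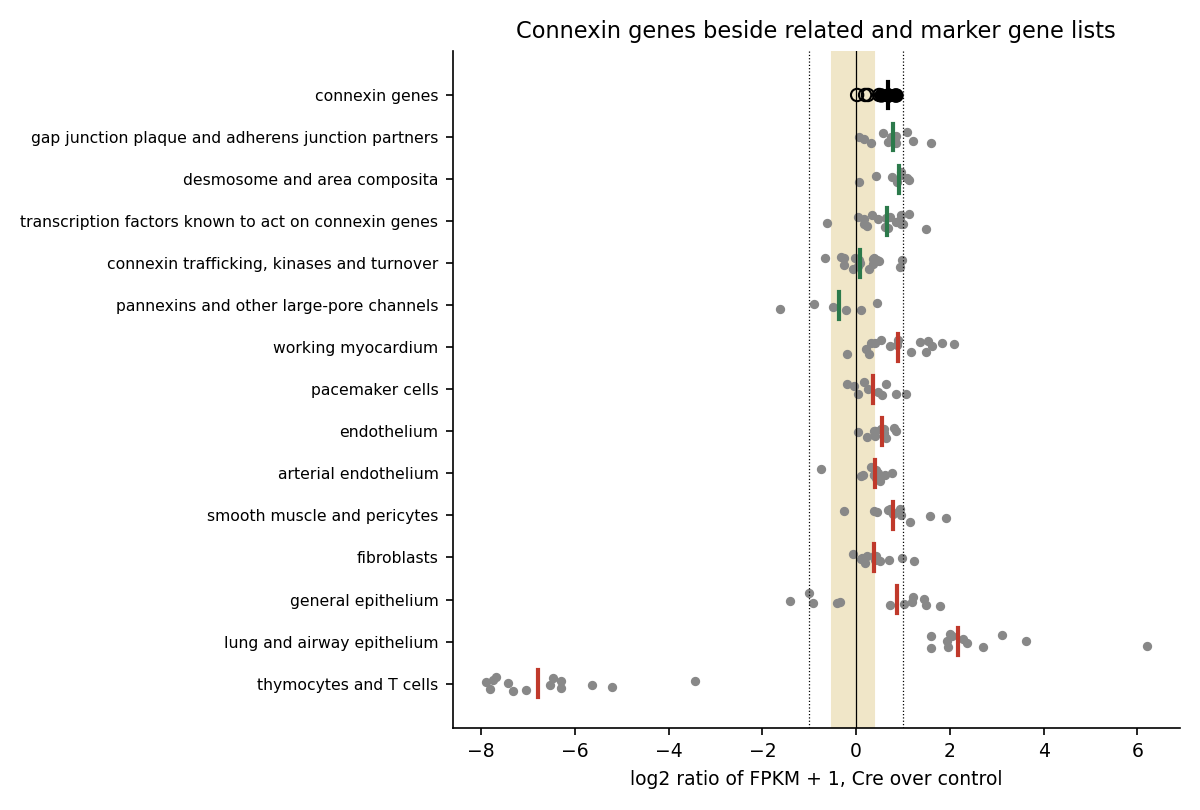
Log2 ratio of FPKM + 1, Cre over control, for connexin genes (top, filled for a mean of 1 FPKM or more, open below it) and for genes of related lists and cell type marker lists (grey points, vertical jitter only), with bars at list medians, shading over the quartiles of all genes (-0.52 to 0.38) and dotted lines at 2-fold. Connexins (median 0.67) lie between the endothelium (0.54) and working myocardium (0.89) medians, while thymocyte markers (-6.79) and lung markers (2.16) stand far to either side.

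Marker lists of the cell types in the sample differed between the libraries as well. Thymocyte and T cell markers differed most, with a median log2 ratio of -6.79. Their summed FPKM was 7.35 in the Cre library and 2967 in the control library. Working myocardium markers had a median log2 ratio of 0.89, with 7 of 16 at least 2-fold higher, and included Ttn, the sarcomere spring, at 43.0 FPKM in the Cre library and 9.31 FPKM in the control library. Their summed FPKM was 27220 in the Cre library and 19500.5 in the control library. Pacemaker markers had a median of 0.35 over 10 measured genes. Hcn4, the pacemaker channel that defines the node, was under 1 FPKM in both libraries, at 0.719 FPKM in the Cre library and 0.605 FPKM in the control library. By this gene the labelled tissue was weakly marked in both. Of the 12 listed pacemaker markers, 1 was under 1 FPKM in the Cre library and 3 in the control library. The strongest, Smoc2, had 25.8 FPKM in the Cre library and 17.3 FPKM in the control library. Smooth muscle and pericyte markers had a median of 0.77 and fibroblast markers 0.39, and both cell types make Gja1. The targeted gene Arid1a had 12.3 FPKM in the Cre library and 34.9 FPKM in the control library, over all its exons, so exons outside the floxed part count too. Macrophage markers had a median of 0.28, adipocyte markers 0.51 and epicardium markers 0.27. The part of these differences in makeup in the connexin and Arid1a values was not tested.

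Set against the median of the working myocardium markers (0.89), every connexin ratio turned negative. Those 16 markers ranged from -0.20 to 2.09, so the sign depends on the use of their median. After the median of those markers was subtracted, Gja4 stood at -0.05, Gjc1 at -0.07, Gja1 and Gja3 both at -0.22, and Gja5 at -0.35. The weak genes ranged from -0.40 for Gjb2 to -0.87 for Gja6. Against the endothelium markers Gja4 was at 0.30, Gjc1 at 0.27, Gja1 and Gja3 at 0.13 and Gja5 at -0.01. Scaling both libraries to the same upper quartile shifted the median of all genes to 0.13 and left all 9 genes above equal expression, with Gja4 at 1.03 and Gjc1 at 1.01, both then past 2-fold, as were 9.71% of all genes measured at that scaling.

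**Figure D4:**
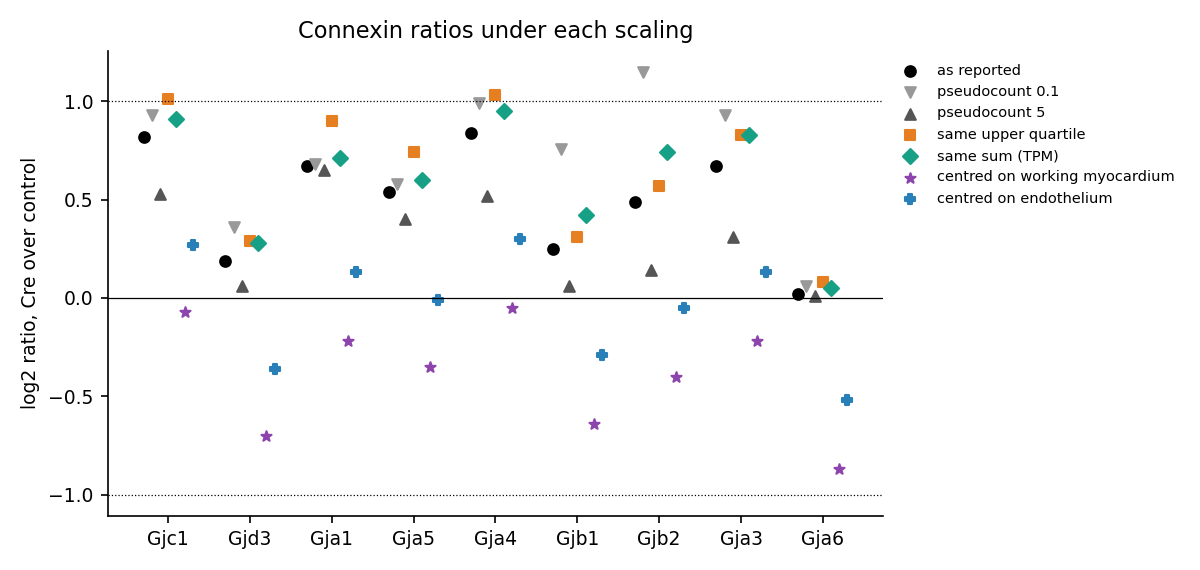
Log2 ratio, Cre over control, of each connexin gene (x axis) under the reported setting and 6 alternatives (symbols), with dotted lines at 2-fold. All 9 genes lie above 0 under the pseudocount and scaling alternatives, all 9 lie below 0 when centred on working myocardium, and 4 lie above 0 when centred on endothelium.

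Among all genes measured, those with levels closest to Gja1 in both libraries were Sod2, Clic4 and Nupr1, with distances of 0.014, 0.051 and 0.084 on the log2 scale over the 2 libraries. Those closest to Gja5 were BC026585, Nelf and Fkbp11, at 0.018, 0.020 and 0.020. With 2 libraries, a small distance says only that the 2 levels were alike.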

How the data were processed

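Poly-A RNA of the SAN was sequenced, and reads were processed with TopHat, Bowtie and Cufflinks on mm9, per the submitters' processing notes. Their versions, the annotation, strand use and library scaling were not stated there. In the deposited table there is 1 FPKM value per gene and library, per the file headers, beside the authors' log2 fold change (within 1.38e-05 of the log2 of Cre over control FPKM), test score, p-value and q-value.

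Of 15967 rows, 2 whose comparison was not completed were left out. Log2 ratios of FPKM + 1 were taken over 13409 genes averaging 1 FPKM or more, 31 small-RNA rows left out. A difference of 2-fold was the rule of size. FPKM summed to 485189 in the Cre library and 497407 in the control library; read depth is unknown, so no counting error can be given. Python 3.11.15 with pandas 2.3.3 was used, and the ratios and calls were tested on simulated data. The planted changes were larger than those of any connexin, so changes of connexin size were not covered. Symbols of all 9 connexins matched RefSeq by accession. Some other connexin rows are not reported here. Besides the 9 genes, Gjb5, Gjc3 and the pannexins, named genes were up to 4 per list with the largest absolute ratio, the 3 nearest to Gja1 and to Gja5, and genes that define a cell type or factor. Shares with Gjb5 were added after seeing the data. The members and lists were chosen with earlier results of these data known.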

Additional observations from a re-analysis of the deposited data

How the results depend on the processing

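The median log2 ratio of the measured connexins, 0.67 as reported, was 0.93 with a pseudocount of 0.1, 0.52 with a pseudocount of 5, 0.90 with the same upper quartile, 0.54 with no minimum level, -0.22 centred on working myocardium and 0.13 centred on endothelium. Scaling to the same sum and a minimum of 5 FPKM moved it by at most 0.1. With the same upper quartile 2 measured connexins passed 2-fold upward, where 9.71% of all genes did (6.08% as reported), and under the other alternatives 0 did. Gjb2, which was below the minimum level and so not counted, had a log2 ratio of 1.15 with a pseudocount of 0.1. Without Gja1, the node-type share was 28.2% in the Cre library and 26.6% in the control library, the working-muscle share 36.3% in the Cre library and 42.0% in the control library, and the ratio of node-type to working-muscle FPKM 0.776 in the Cre library and 0.634 in the control library. This follows from the removal of the most abundant gene. With Gja1 kept, leaving out the 4 genes under 1 FPKM moved the node-type and working-muscle shares and their ratio by less than 1.5-fold. No paired analysis was possible because there is 1 library per genotype. Read depth is unknown, which limits the weak genes Gjd3, Gjb1, Gjb2 and Gja6 most.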

Other observations

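Other genes of impulse conduction spread more widely than the connexins. Of 14 measured ion channel genes of the conduction list, 6 passed 2-fold upward, 1 passed it downward and 13 lay above equal expression, with a median log2 ratio of 0.87. Over all genes measured, 6.08% passed 2-fold upward, 10.4% passed it downward and 46.0% lay above equal expression. Working myocardium markers had a similar median of 0.89, with 7 of 16 at least 2-fold higher. Kcne1, which modulates potassium channels, had 9.96 FPKM in the Cre library and 0.711 FPKM in the control library. Cacna1c, the L-type calcium channel of heart muscle, had 11.7 FPKM in the Cre library and 2.93 FPKM in the control library. Scn4b, a sodium channel subunit, had 0.172 FPKM in the Cre library and 3.65 FPKM in the control library.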
